A study of Homo sapiens with 3 samples.

Results

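The integrated stress response is described here through 10 of its genes, in cells depleted of the RNA-editing enzyme ADAR1. They are the transcription factors ATF4, ATF3, ATF5, DDIT3 and CEBPB and the effectors TRIB3, CHAC1, DDIT4, SESN2 and PPP1R15A. The 10 genes were taken by name from a table of 58333 genes, each symbol matching 1 Ensembl identifier. The rule uses no measured value, although the genes were proposed with earlier results of these data known. Cal62 is a human thyroid cancer cell line, grown in DMEM with 10% fetal bovine serum. It was transfected with Lipofectamine RNAimax and a control siRNA (siControl) or 1 of 2 siRNAs against ADAR1 (siADAR1 #1 and siADAR1 #2). For each siRNA 2 libraries of poly(A)+ RNA, which the methods describe as biological replicates, were read in pairs of 75 bases, 6 libraries in all. How long after transfection the cells were harvested is not given in the sources used here. All 6 libraries carry the transfection reagent and an siRNA, and none comes from untransfected cells.

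In the integrated stress response, the kinases PERK, GCN2, PKR and HRI phosphorylate the translation factor eIF2α. General protein synthesis then slows, while the ATF4 mRNA is translated more, so the level of the ATF4 mRNA and that of its protein can move apart. ATF4 is a basic leucine zipper (bZIP) factor that forms dimers with C/EBP family members and binds C/EBP-ATF response elements, and it induces DDIT3 (CHOP), a related factor, and a set of effector genes. ADAR1 converts adenosine to inosine in double-stranded RNA, and PKR is a sensor of such RNA. RNA-seq measures mRNA, and neither eIF2α phosphorylation nor the ATF4 protein was measured in these libraries.

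The upstream regions of the effectors TRIB3, CHAC1, DDIT4 and SESN2 and of the factors DDIT3 and ATF3 hold the sequence to which ATF4 dimers are known to bind. They are shown for this motif, which the other members lacked in the bases searched. TGATGNAA, the C/EBP-ATF response element, was searched on both strands in the 1000 bases before each RefSeq start site. In the lines below the match is in capitals, within 30 bases written 5′ to 3′ on the strand of the gene, from GRCh38 at starts annotated by RefSeq (GRCh38.p14).
TRIB3: ttagctccggtTTGCATCAcccggaccggg
CHAC1: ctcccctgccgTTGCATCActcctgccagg
DDIT3: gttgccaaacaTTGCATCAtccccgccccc
DDIT4: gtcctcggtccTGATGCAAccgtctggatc
SESN2: gtgaagtccctTTTCATCAcgcaaccctaa
ATF3: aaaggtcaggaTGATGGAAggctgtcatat

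The TRIB3 stretch occurs 3 times, 33 bases apart, at chr20:380881-380910, chr20:380914-380943 and chr20:380947-380976 on the plus strand, and 0 of the 30 bases differ between copies. All copies lie in an exon of a GENCODE transcript of TRIB3 and between 337 and 451 bases before the 3 RefSeq starts. The CHAC1 stretch, at chr15:40953251-40953280 on the plus strand, has its match 209 bases before the RefSeq start and in an exon of a longer GENCODE transcript of CHAC1. In DDIT3, at chr12:57520802-57520831 on the minus strand, the match is 303 or 306 bases before the RefSeq starts and falls in an intron of longer transcripts of DDIT3 and of the overlapping gene MBD6.

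The DDIT4 match is 946 bases before the start, at chr10:72272967-72272996 on the plus strand, in an exon of the gene ENSG00000289506. SESN2, at chr1:28259211-28259240, and ATF3, at chr1:212565205-212565234, both on the plus strand, have theirs 296 and 191 bases before the start and in no annotated gene. TRIB3, CHAC1, DDIT3 and DDIT4 share the letters TGATGCAA, written TTGCATCA where they read on the opposite strand, and SESN2 and ATF3 have other forms.

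A match to TGATGNAA was present in 12.95% of 35116 promoter windows of 1000 bases and before 15.14% of 27305 genes, against 6 of the 10 members. The 1000-base window and the form TGATGCAA were chosen after matches were seen, and the members were taken as known genes of this response. The contrast is therefore a description and no test. In the shorter window, from 250 bases before to 50 after each start, it was present for 2 of the 10 members, CHAC1 and ATF3, and for 4.457% of genes. In the 1000-base window the form TGATGCAA was found before 2.999% of genes. No match to TGATGNAA was found in the 1000-base window before ATF4, ATF5, CEBPB or PPP1R15A. PPP1R15A instead had TGACGTCA, the cyclic AMP response element, 58 bases before its start and in an exon of a longer transcript of that gene.
PPP1R15A: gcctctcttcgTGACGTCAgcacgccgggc

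That stretch is at chr19:48872352-48872381 on the plus strand. TGACGTCA was found on either strand before 2.82% of genes, and ATF3 had it too, 497 bases before the second of its RefSeq starts. The endoplasmic reticulum stress response element was found in 0.131% of all windows and before 0 of the 10 members. Over all genes tested that have a window, genes with and without the element were called at similar rates. With siADAR1 #1, 7.57% of the 1612 tested genes with TGATGNAA were called higher and 7.04% of the 11167 without it. With siADAR1 #2 the shares were 12.28% and 12.31%.

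Each library had between 30114840 and 50029763 reads on genes, with a median of 43005907. Values are given as normalized counts, the reads of a gene divided by the size factor of its library, and 1 read was worth 0.935 to 1.46 normalized counts. The target was reduced in every siADAR1 library, with ADAR at 10906 and 11701 normalized counts in siControl, 1328 and 2246 with siADAR1 #1, and 1663 and 2928 with siADAR1 #2. The log2 fold change (log2FC) of ADAR was −2.71 ± 0.30 (SE, adjusted p = 0.00295) with siADAR1 #1 and −2.35 ± 0.30 (adjusted p = 0.00128) with siADAR1 #2. Of the thyroid markers, PAX8 was abundant, at 13927 to 15868 normalized counts in siControl, while NKX2-1 had 0 in all libraries and TG at most 62.4. The 9 thyroid markers summed to 14328 to 16128 normalized counts in siControl, 10523 to 15237 with siADAR1 #1 and 2854 to 5759 with siADAR1 #2, and the 5 markers of other cells to 2136 to 2213, 2594 in each library and 2982 to 3968. CD68 was the called gene among the latter, with a log2FC of 1.80 ± 0.37 (adjusted p = 0.00880) with siADAR1 #2, a call that was lost without siControl replicate 1 (range of adjusted p 0.000261 to 0.0812), and PTPRC did not exceed 6.28 normalized counts. EPCAM, an epithelial gene that a thyroid cancer line can itself express, made up most of the sum over the 5 markers of other cells. It had 1681 to 1926 normalized counts in siControl, 1926 to 2127 with siADAR1 #1 and 2140 to 2366 with siADAR1 #2. The part of these markers in the results was not tested. Relative to siControl, the median log2 value of the libraries was shifted by −0.145 with siADAR1 #1 and −0.0163 with siADAR1 #2, so median-centring would raise every log2FC of siADAR1 #1 by that amount.

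TRIB3, CHAC1, DDIT4, SESN2 and PPP1R15A rose with each siRNA. The rises were largest for DDIT4 and CHAC1, between 3.26-fold and 5.09-fold, and TRIB3 rose 2.56-fold with siADAR1 #1 and 2.55-fold with siADAR1 #2. A gene was called changed at a Benjamini-Hochberg adjusted p-value under 0.05 in limma and a log2FC beyond 0.5 in either direction. Of the 10 members, 8 were called higher with siADAR1 #1, against 6.18% of the 20858 genes tested, and 7 with siADAR1 #2, against 11.1%. In each comparison 1 member was called lower, against 10.6% of all genes with siADAR1 #1 and 15.5% with siADAR1 #2. The median log2FC of the members was 1.06 and 1.18, beside −0.02 and −0.01 over all genes tested. All 4 siADAR1 libraries lay above both siControl libraries for 7 members, against 12.0% of all genes, and all 4 lay below for 1 member, against 16.6%. Both comparisons use the same siControl libraries, so their values are given side by side and are not independent of each other. In bulk RNA, a different share of responding cells and a different amount of mRNA per cell cannot be told apart.

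**Figure D1:**
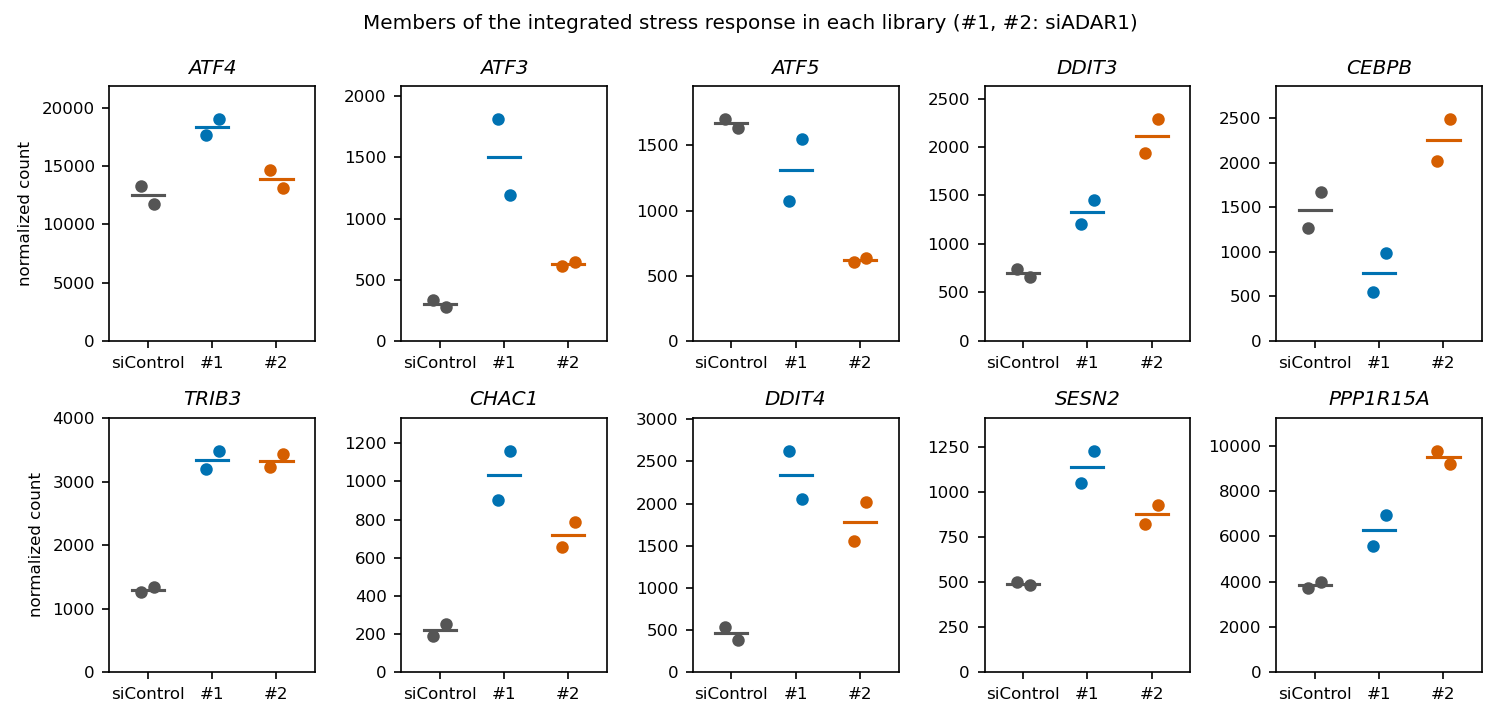
Normalized counts of the 10 members (vertical axes, each starting at 0) in the 6 libraries, by siRNA (horizontal axes), with points for libraries and bars for the mean of 2. All siADAR1 points of TRIB3, CHAC1, DDIT4, SESN2, PPP1R15A, ATF3 and DDIT3 lie above the siControl points, those of ATF5 lie below them, and ATF4 and CEBPB are not separated.

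TRIB3 is a pseudokinase that binds ATF4 and CHOP and restrains their activity, and it also binds the kinase AKT. TRIB3 had 1258 and 1346 normalized counts in siControl, 3202 and 3487 with siADAR1 #1, and 3224 and 3435 with siADAR1 #2. The siADAR1 libraries of both siRNAs fell in 1 narrow range, well above siControl. The log2FC was 1.36 ± 0.12 (adjusted p = 0.00199) with siADAR1 #1 and 1.35 ± 0.12 (adjusted p = 0.000385) with siADAR1 #2. Directly compared, the siRNAs differed by 0.01 on the log2 scale, with a 95% interval from −0.27 to 0.28 and an adjusted p of 0.976, and the sign of this difference changed with the processing.

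CHAC1 degrades glutathione, the main small thiol of the cell. It was among the lowest members in siControl, with 191 and 251 normalized counts, and reached 905 and 1161 with siADAR1 #1 and 657 and 785 with siADAR1 #2. Every siADAR1 library was above the siControl libraries, and those of siADAR1 #1 were above those of siADAR1 #2. The log2FC was 2.22 ± 0.21 (adjusted p = 0.00236) and 1.70 ± 0.21 (adjusted p = 0.00112). The difference between the siRNAs was 0.51 (95% interval 0.03 to 1.00, adjusted p = 0.0944). It was called with the replicate number as a block, at an adjusted p of 0.0336, after quantile normalization (0.56, adjusted p = 0.0469) and after median-centring (0.64, adjusted p = 0.0313), the range over the alternatives being 0.0313 to 0.350.

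DDIT4 (REDD1) restrains the growth-promoting kinase complex mTORC1 and is also induced by hypoxia and glucocorticoids. Its siControl libraries had 541 and 381 normalized counts, those of siADAR1 #1 2627 and 2053, and those of siADAR1 #2 1556 and 2018. All siADAR1 libraries were far above siControl, and the lower library of siADAR1 #1 and the higher one of siADAR1 #2 were close to each other. DDIT4 had a log2FC of 2.35 ± 0.22 (adjusted p = 0.00236) with siADAR1 #1 and 1.96 ± 0.22 (adjusted p = 0.000790) with siADAR1 #2. The siRNAs differed by 0.39 (95% interval −0.12 to 0.90, adjusted p = 0.208).

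SESN2, a leucine-binding protein that holds back mTORC1, had 500 and 482 normalized counts in siControl, 1051 and 1230 with siADAR1 #1 and 826 and 929 with siADAR1 #2. Its groups did not overlap, with siADAR1 #1 highest. Its log2FC was 1.21 ± 0.15 (adjusted p = 0.00384) and 0.83 ± 0.15 (adjusted p = 0.00571), and the difference of 0.38 between the siRNAs (95% interval 0.02 to 0.73) had an adjusted p of 0.0942.

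PPP1R15A (GADD34) brings protein phosphatase 1 to eIF2α and so reverses its phosphorylation. It had 3721 and 3979 normalized counts in siControl, 5562 and 6963 with siADAR1 #1 and 9778 and 9194 with siADAR1 #2. Here the order of the siRNAs was the opposite of that for CHAC1 and SESN2, with siADAR1 #2 highest and no overlap. PPP1R15A rose by a log2FC of 0.69 ± 0.13 (adjusted p = 0.0126) with siADAR1 #1 and 1.30 ± 0.13 (adjusted p = 0.000576) with siADAR1 #2. The rise was smaller with siADAR1 #1 by 0.61 on the log2 scale (adjusted p = 0.00934), a call that was lost after median-centring (−0.48), with eBayes without a trend (adjusted p = 0.0518), without siADAR1 #1 replicate 1 (−0.45) and without siADAR1 #2 replicate 1 (adjusted p = 0.0611, range 0.00499 to 0.0611). Its call with siADAR1 #1 was lost without siControl replicate 1 or 2 (log2FC 0.64 and 0.74) and with eBayes without a trend (adjusted p = 0.0728).

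**Figure D2:**
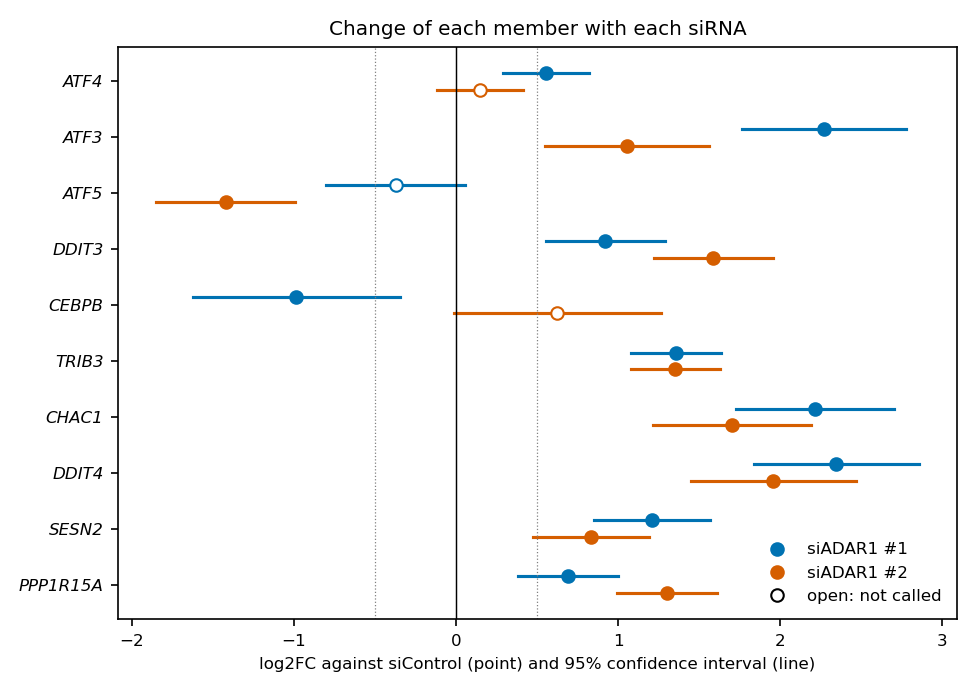
log2FC of each member against siControl (horizontal axis) with siADAR1 #1 (blue) and siADAR1 #2 (orange), with 95% confidence intervals as lines and thresholds at −0.5 and 0.5 as dotted lines. Filled points passed both thresholds, and the 5 effectors in the lower rows are filled for both siRNAs, while ATF4 and CEBPB are filled for siADAR1 #1 only and ATF5 for siADAR1 #2 only.

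Among the factors, the ATF4 mRNA was called with siADAR1 #1 and not with siADAR1 #2. It had 13264 and 11790 normalized counts in siControl, 17704 and 19028 with siADAR1 #1, and 14632 and 13132 with siADAR1 #2. The libraries of siADAR1 #1 stood above the rest, and those of siADAR1 #2 overlapped siControl. With siADAR1 #1 ATF4 had a log2FC of 0.55 ± 0.12 (adjusted p = 0.0164), just past the threshold of 0.5. This call was lost when any 1 of the 4 libraries of that comparison was left out, with a log2FC of 0.47 to 0.64. It was also lost with eBayes without a trend (adjusted p = 0.0878). With siADAR1 #2 the log2FC was 0.15 ± 0.12 (adjusted p = 0.380), and the siRNAs differed by 0.40 (95% interval 0.14 to 0.67, adjusted p = 0.0268), below the log2FC threshold.

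ATF3, a bZIP factor that is induced early in many stresses and mostly represses transcription, had 332 and 276 normalized counts in siControl, 1812 and 1195 with siADAR1 #1 and 616 and 647 with siADAR1 #2. The 3 groups were apart from each other. Its log2FC was 2.27 ± 0.22 (adjusted p = 0.00236) and 1.05 ± 0.22 (adjusted p = 0.00926), and it was the member with the largest called difference in favour of siADAR1 #1, at 1.22 ± 0.22 (adjusted p = 0.00389). Without siControl replicate 2 its call with siADAR1 #2 was lost (adjusted p = 0.0695, range 0.00339 to 0.0695).

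DDIT3 encodes CHOP, a partner of C/EBP factors that can promote cell death. DDIT3 had 741 and 660 normalized counts in siControl, 1206 and 1457 with siADAR1 #1 and 1941 and 2287 with siADAR1 #2. The siRNAs again did not overlap, and the order was that of PPP1R15A. The log2FC was 0.92 ± 0.16 (adjusted p = 0.00898) with siADAR1 #1, 1.59 ± 0.16 (adjusted p = 0.000537) with siADAR1 #2, and −0.67 ± 0.16 (adjusted p = 0.0131) for siADAR1 #1 against siADAR1 #2. The first of these was lost without siControl replicate 1 or 2 (log2FC 1.00 and 0.84) and with eBayes without a trend (adjusted p = 0.0511). The last was lost without siADAR1 #1 replicate 1 or siADAR1 #2 replicate 2 (−0.53 and −0.55). DDIT3 shares 27.2% of its exon bases with MARS1 on the opposite strand, which had 7888 to 14690 normalized counts and a log2FC of 0.79 and 0.42. Whether reads were counted by strand is not given in the sources used here, so reads on the shared exon bases cannot be told apart.

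ATF5, a bZIP factor of the mitochondrial stress response, was the member whose siADAR1 libraries all lay below siControl. It had 1700 and 1635 normalized counts in siControl, 1071 and 1546 with siADAR1 #1, and 604 and 639 with siADAR1 #2. The siADAR1 #2 libraries were far below the others, and the siADAR1 #1 libraries were spread between. ATF5 fell by 1.42 ± 0.19 on the log2 scale (adjusted p = 0.00138) with siADAR1 #2, and with siADAR1 #1 its log2FC was −0.37 ± 0.19 (adjusted p = 0.210), or −0.64 and called without siADAR1 #1 replicate 2 (adjusted p = 0.0353, range 0.0353 to 0.742). The siRNAs differed by 1.05 ± 0.19 (adjusted p = 0.00364). NUP62, on the opposite strand, overlaps 19.5% of its exon bases and had a log2FC of −0.22 with siADAR1 #1 and −0.78 with siADAR1 #2.

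CEBPB (C/EBPβ), a bZIP factor of inflammation and differentiation, had 1265 and 1665 normalized counts in siControl, 545 and 984 with siADAR1 #1 and 2018 and 2486 with siADAR1 #2. Its siADAR1 libraries lay on opposite sides of siControl. It was called lower with siADAR1 #1, with a log2FC of −0.98 ± 0.28 (adjusted p = 0.0439), and with siADAR1 #2 it had 0.63 ± 0.28 (adjusted p = 0.130). The former call was kept in 6 of 16 alternatives (adjusted p 0.00528 to 0.228), and among the losses were those without siControl replicate 1 or 2, siADAR1 #1 replicate 1, or either library of siADAR1 #2. The latter was called with the replicate block, at an adjusted p of 0.0202 (range 0.0202 to 0.466), and also without either library of siADAR1 #1 (adjusted p = 0.0340 and 0.0343). The difference between the siRNAs, −1.61 ± 0.28 (adjusted p = 0.00318), was called in all 16 alternatives. Exons of the antisense gene CEBPB-AS1, at 71.4 to 161 normalized counts, overlap 12.6% of its exon bases.

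Tested directly, siADAR1 #1 was called higher than siADAR1 #2 for 2 members, ATF3 and ATF5, and lower for 3, DDIT3, PPP1R15A and CEBPB. Over all genes 16.1% were called higher and 16.7% lower in this comparison. For TRIB3, DDIT4, CHAC1, SESN2 and ATF4 no difference was called, and the intervals above give the sizes these data leave possible. ADAR itself differed by −0.35 ± 0.30 (adjusted p = 0.404) between the siRNAs. When the 4 siADAR1 libraries were taken as 1 group, 0 members and 0.0% of all genes were called by limma. In that fit 7 members and 2916 of the 20858 genes tested had an unadjusted p under 0.05. TRIB3 and DDIT4 had the smallest adjusted p, 0.0988. In this fit the spread within the group includes the differences between the siRNAs. The average of both changes in the fit with 3 groups called 8 members. With the replicate block added, that average called 8 members and 4055 of the 20858 genes.

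**Figure D3:**
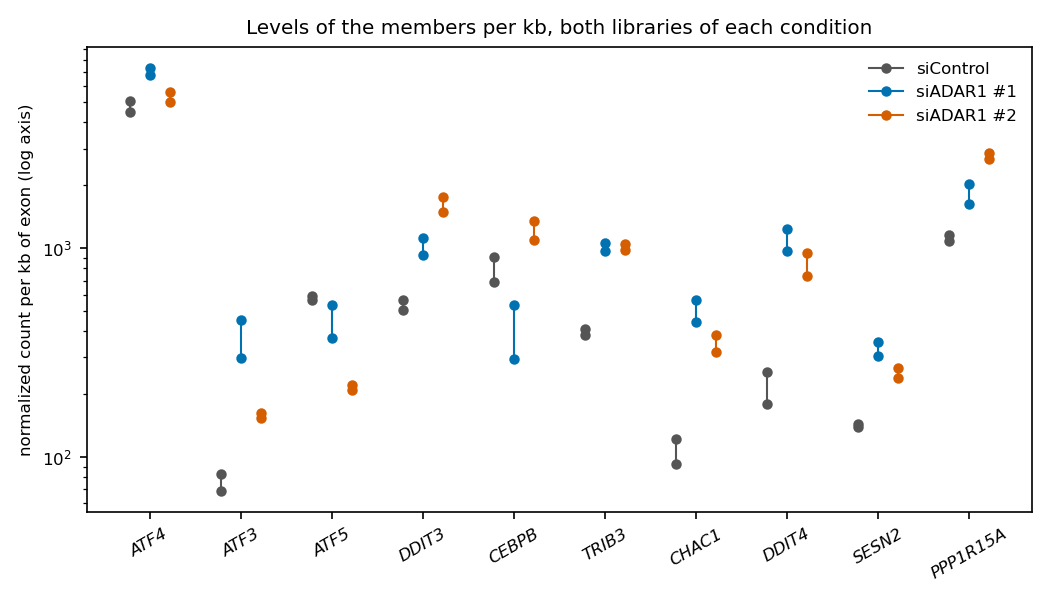
Normalized counts per kb of exon (vertical log axis) of the members in siControl (grey), siADAR1 #1 (blue) and siADAR1 #2 (orange), with points for libraries and a line joining the 2 libraries of a condition. ATF4 is highest in all 3 conditions, from 4512 to 7282, and ATF3 and CHAC1 are lowest in siControl, from 69.1 to 122.

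Levels of different genes were compared as normalized counts per kb of exon. ATF4 was the most abundant member, with 4512 to 5076 in siControl, 6775 to 7282 with siADAR1 #1 and 5026 to 5600 with siADAR1 #2, and PPP1R15A came next in all 3 conditions. In siControl the order went on with CEBPB, ATF5, DDIT3, TRIB3, DDIT4, SESN2, CHAC1 and ATF3, and only the ranges of ATF5 and DDIT3 met. With siADAR1 #1, DDIT4 at 969 to 1240 came after PPP1R15A, in a range that met those of DDIT3 and TRIB3. CHAC1, ATF5, CEBPB, ATF3 and SESN2 followed there, and each overlapped its next neighbour. With siADAR1 #2 no neighbours overlapped, DDIT3 came after PPP1R15A at 1485 to 1749, and ATF5 stood next to last at 209 to 221.

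Other known targets of ATF4 and CHOP, mainly for amino acid synthesis, amino acid transport and aminoacyl-tRNA synthesis, were called higher more often than lower. Of 46 listed genes 44 were tested, and 17 were called higher and 0 lower with siADAR1 #1, against 6.18% and 10.6% of all genes tested. With siADAR1 #2, 21 were called higher and 3 lower, against 11.1% and 15.5%. Without 1 of the 6 libraries, 7 to 17 were called higher with siADAR1 #1 and 17 to 21 with siADAR1 #2. The lowest was 7 without siControl replicate 1, and without siControl replicate 2 it was 10. With eBayes without a trend the count was 8 for siADAR1 #1. The 3 called lower with siADAR1 #2 became 0 without siControl replicate 1, 1 without either library of siADAR1 #2 and 2 without siControl replicate 2. Their median log2FC was 0.43 and 0.50. ASNS, which makes asparagine, rose with a log2FC of 1.55 ± 0.14 (adjusted p = 0.00199) and 1.47 ± 0.14 (adjusted p = 0.000441). SLC7A11, the cystine transporter, rose by 1.20 ± 0.15 (adjusted p = 0.00343) and 1.70 ± 0.15 (adjusted p = 0.000377). STC2, a secreted glycoprotein, went from a mean of 1711 normalized counts in siControl to 5710 and 6250, with a log2FC of 1.74 ± 0.13 (adjusted p = 0.00167) and 1.86 ± 0.13 (adjusted p = 0.000259). In the direct comparison of the siRNAs 4 of the 44 were called higher and 9 lower with siADAR1 #1. Over all genes 16.1% were called higher and 16.7% lower in that comparison.

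**Figure D4:**
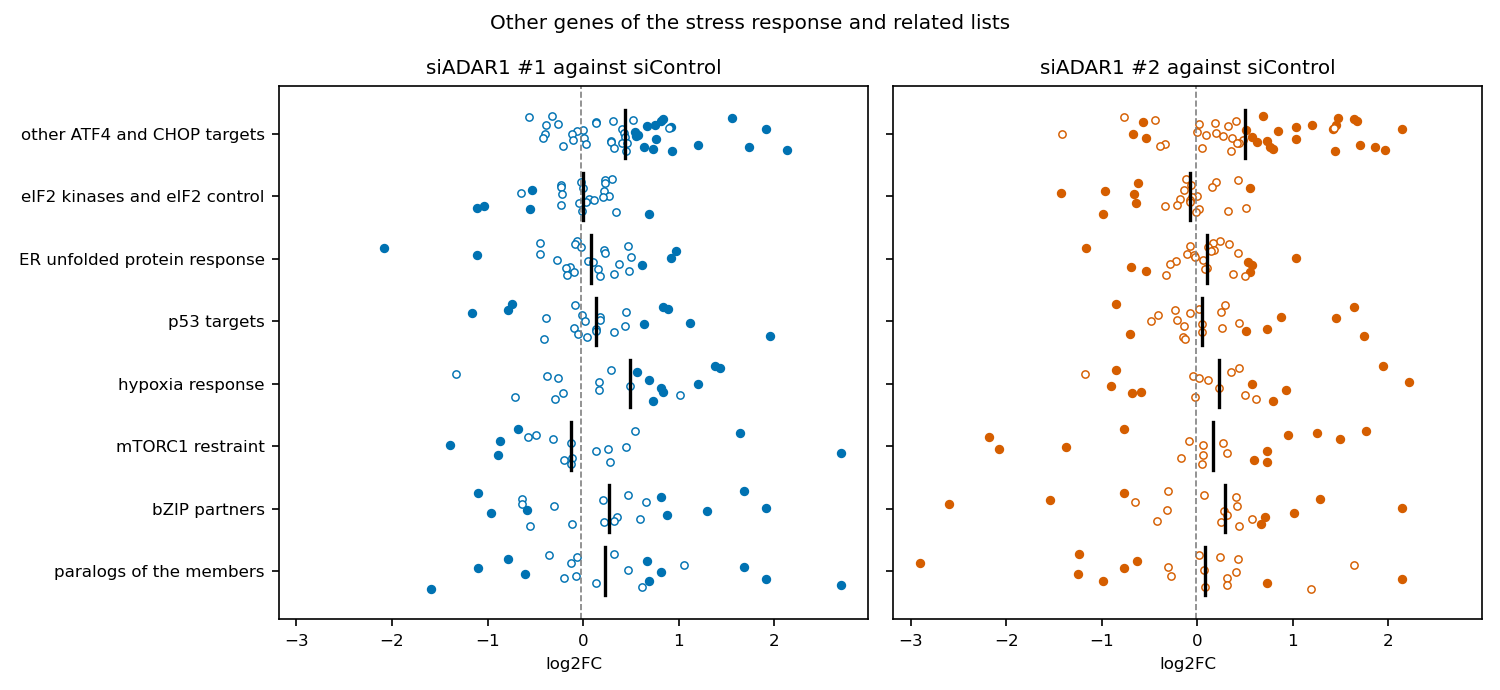
log2FC against siControl (horizontal axes) of the genes of 8 lists with siADAR1 #1 (left) and siADAR1 #2 (right), with filled points for called genes, open points for others, a black bar for the median of a list and a dashed line for the median of all genes tested. The list of ATF4 and CHOP targets has its median at 0.43 and 0.50, and the list of eIF2 control has it at −0.01 and −0.08.

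Genes upstream of ATF4 were called in both directions. Of 24 genes of eIF2 and its control, 1 was called higher and 4 lower with siADAR1 #1, where 6.18% of all genes were called higher and 10.6% lower, and 1 higher and 6 lower with siADAR1 #2, where the shares were 11.1% and 15.5%. The median log2FC was −0.01 and −0.08. The 4 lower with siADAR1 #1 became 0 without siControl replicate 1 and 1 without siADAR1 #1 replicate 1. The 1 higher became 0 without siControl replicate 1 or 2 or siADAR1 #1 replicate 1 for siADAR1 #1, and 0 without siControl replicate 2 or siADAR1 #2 replicate 1 and 2 without either other library of that comparison for siADAR1 #2. EIF2B1 and EIF2B2, subunits of the exchange factor that recharges eIF2, had log2FC of −0.96 ± 0.12 (adjusted p = 0.000984) and −1.43 ± 0.20 (adjusted p = 0.00179) with siADAR1 #2, and of 0.22 and −0.65 with siADAR1 #1, neither of which was called. The 4 kinases were looked at after their values were seen. EIF2AK2 (PKR) had between 4137 and 13738 normalized counts over the 6 libraries and a log2FC of −0.24 ± 0.51 (adjusted p = 0.795) and 0.15 ± 0.51 (adjusted p = 0.855), and a change within this spread was not detectable. EIF2AK3 (PERK) was called higher with siADAR1 #2, with 0.55 ± 0.14 (adjusted p = 0.0189, range 0.00493 to 0.131), a call lost without siControl replicate 2, without siADAR1 #2 replicate 1 and with eBayes without a trend. EIF2AK4 (GCN2) was called lower with siADAR1 #1, with −0.54 ± 0.11 (adjusted p = 0.0164, range 0.00898 to 0.0982), which was lost without siControl replicate 1 or siADAR1 #1 replicate 1 and in 3 other alternatives. EIF2AK1 (HRI) passed neither test.

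Paralogs of the members were called in both directions. Of 22 paralogs 20 were tested, and 6 were called higher and 4 lower with siADAR1 #1, beside 6.18% and 10.6% of all genes, and 2 higher and 6 lower with siADAR1 #2, beside 11.1% and 15.5%. Without siControl replicate 1 the counts with siADAR1 #1 were 2 and 0, and the 4 lower became 1 without siControl replicate 2 or siADAR1 #1 replicate 1 and 2 without siADAR1 #1 replicate 2. The 2 higher with siADAR1 #2 became 1 without siControl replicate 2. PPP1R15B, the other partner of protein phosphatase 1 at eIF2α, is also counted in the list of eIF2 and its control. It rose with siADAR1 #1 (log2FC 0.69 ± 0.15, adjusted p = 0.0177) and fell with siADAR1 #2 (−0.99 ± 0.15, adjusted p = 0.00228), while PPP1R15A rose with both. The former call was lost without siControl replicate 1 or 2, without siADAR1 #1 replicate 1 and with eBayes without a trend (range of adjusted p 0.00526 to 0.104), and the difference between the siRNAs, 1.68, was called in all 16 alternatives. CHAC2 fell by 1.25 ± 0.17 on the log2 scale (adjusted p = 0.00165) with siADAR1 #2, where CHAC1 rose. With siADAR1 #1 CHAC2 had −0.61 ± 0.17 (adjusted p = 0.0445, range 0.0351 to 0.203), a call that was kept in 6 of 16 alternatives and lost when any 1 of the 6 libraries was left out. TRIB2 was called lower with siADAR1 #1 (−1.59 ± 0.40, adjusted p = 0.0301, range 0.00676 to 0.141), which was lost in 6 alternatives, among them those without siControl replicate 1 and without either library of siADAR1 #1. It had 1.19 ± 0.40 (adjusted p = 0.0570) with siADAR1 #2, and TRIB1 had 0.61 and 0.08, with neither called.

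SESN3 rose with siADAR1 #1, from a mean of 10.1 to 80.8 normalized counts (log2FC 2.70 ± 0.40, adjusted p = 0.00580), and the siRNAs differed by 2.39 (adjusted p = 0.00298). The rise was not called without siControl replicate 1 (adjusted p = 0.0512, range 0.00318 to 0.0512). SESN1 was called higher with siADAR1 #2 (0.73 ± 0.19, adjusted p = 0.0243, range 0.0166 to 0.147), but not without siControl replicate 1 or 2 or siADAR1 #2 replicate 1. JDP2, a bZIP repressor close to ATF3, rose with both, with log2FC of 1.91 ± 0.24 (adjusted p = 0.00345) and 2.15 ± 0.24 (adjusted p = 0.000746), and is also in the list of ATF4 and CHOP targets. The bZIP factors ATF1 and BATF fell with siADAR1 #2, with log2FC of −1.24 ± 0.13 (adjusted p = 0.000597) and −2.90 ± 0.32 (adjusted p = 0.000784), and were not called with siADAR1 #1, at 0.32 and −0.13. Their differences between the siRNAs, 1.56 and 2.78, were called in all 16 alternatives. CEBPA (C/EBPα) was called lower with each siRNA, with −1.10 ± 0.23 (adjusted p = 0.0170, range 0.0118 to 0.0990) and −0.77 ± 0.23 (adjusted p = 0.0405, range 0.0237 to 0.187). Without siControl replicate 1 or 2 neither call of CEBPA was made, the former was also lost without siADAR1 #1 replicate 1, and the latter without either library of siADAR1 #2 and without the filter. The other paralogs called were BATF3 (log2FC 1.68) and CEBPG (0.81), higher with siADAR1 #1, and ATF6B (−0.79), lower with siADAR1 #1. ATF7 was called higher with siADAR1 #1 (0.67) and lower with siADAR1 #2 (−0.63). CEBPG kept its call in all 16 alternatives. Without siControl replicate 1, BATF3 and ATF6B lost theirs, as did ATF7 with both siRNAs. With eBayes without a trend ATF6B and both calls of ATF7 were lost, and these genes lost calls in other alternatives too. DDIT4L, the paralog of DDIT4, did not exceed 1.02 normalized counts and was not tested.

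In lists of neighbouring pathways, shares of called genes are read beside those over all genes, 6.18% higher and 10.6% lower with siADAR1 #1 and 11.1% and 15.5% with siADAR1 #2. In the list for the unfolded protein response, the stress response of the endoplasmic reticulum, 3 of 26 genes were called higher and 2 lower with siADAR1 #1, and 4 and 3 with siADAR1 #2. These counts are near those shares, and the 3 higher with siADAR1 #1 became 0 without siControl replicate 1 or 2, as did the 2 lower, which were 1 without siADAR1 #1 replicate 1. With 1 library left out, the counts with siADAR1 #2 ran from 1 to 6 higher, with 1 without siControl replicate 2 or siADAR1 #2 replicate 1, 2 without siControl replicate 1 and 6 without siADAR1 #2 replicate 2, and the 3 lower became 1 without siControl replicate 1 or either library of siADAR1 #2. The called genes included HERPUD1, a degradation factor that is also an ATF4 target, with log2FC of 0.92 ± 0.14 and 1.03 ± 0.14 (adjusted p = 0.00632 and 0.00165). The former call was lost without siControl replicate 1 or 2 and with eBayes without a trend. SESN2 is also known as a target of p53. Of 23 other p53 targets 5 were called higher and 3 lower with siADAR1 #1, and 6 and 2 with siADAR1 #2. The 5 became 0 without siControl replicate 1 or 2, 2 without either library of siADAR1 #1 and 3 without either library of siADAR1 #2. The 6 became 2 without siControl replicate 2 and 3 without siControl replicate 1 or siADAR1 #2 replicate 1. Of those called lower, the 3 became 0 without siControl replicate 1 and 1 without siControl replicate 2 or siADAR1 #1 replicate 1, and the 2 became 0 without siControl replicate 1 and 1 without siControl replicate 2 or siADAR1 #2 replicate 1. Some p53 targets called higher with siADAR1 #2 are counted in other lists too. BBC3 and GDF15 are also in the list of ATF4 and CHOP targets, and SESN1 is also among the paralogs and the restraints of mTORC1. BBC3 (PUMA), a pro-apoptotic gene that CHOP can also induce, rose by 1.64 ± 0.20 (adjusted p = 0.00101) with siADAR1 #2. With siADAR1 #1 it had 0.84 ± 0.20 (adjusted p = 0.0243, range 0.0133 to 0.104), a call lost when any 1 of the 4 libraries of that comparison was left out.

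Among 19 genes of the hypoxia response, 8 were called higher and 0 lower with siADAR1 #1, with a median log2FC of 0.49, and 5 higher and 4 lower with siADAR1 #2, with a median of 0.22. Over all genes 6.18% were called higher and 10.6% lower with siADAR1 #1, and 11.1% and 15.5% with siADAR1 #2. Without siControl replicate 1 the former count was 1, as it was without siControl replicate 2, and it was 4 without siADAR1 #1 replicate 1 and 2 with eBayes without a trend. With siADAR1 #2 the 5 became 3 without siControl replicate 2 or either library of siADAR1 #2, and the 4 became 1 without siControl replicate 1 and 2 without either library of siADAR1 #2. VEGFA, called higher with each siRNA, is also in the list of ATF4 and CHOP targets. ADM, a vasodilator peptide, rose by 1.38 ± 0.23 (adjusted p = 0.00824) and 1.94 ± 0.23 (adjusted p = 0.000977). The former was not called without siControl replicate 1 or 2 or with eBayes without a trend. Of 18 other genes listed as restraints of mTORC1, 2 were called higher and 4 lower with siADAR1 #1, and 7 and 4 with siADAR1 #2. Without siControl replicate 1 both counts with siADAR1 #1 were 0, and the 4 lower became 0 without siControl replicate 2 and 1 without siADAR1 #1 replicate 1. SESN3, called higher with siADAR1 #1, and SESN1, called higher with siADAR1 #2, are in this list and also among the paralogs. FLCN, which is in the list but acts on the Rag GTPases in a way that can favour mTORC1, rose with siADAR1 #2 (log2FC 1.49 ± 0.17, adjusted p = 0.000888). PRKAA1, a catalytic subunit of AMPK, fell (−1.37 ± 0.13, adjusted p = 0.000442). For both, siADAR1 #1 differed from siADAR1 #2, by −1.81 and 1.82 (adjusted p = 0.000341 and 0.000149).

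The bZIP partners of the factors held 5 genes called higher and 3 lower of 20 with each siRNA, beside 6.18% and 10.6% of all genes with siADAR1 #1 and 11.1% and 15.5% with siADAR1 #2. This list overlaps others above. BATF3 and CEBPG, higher with siADAR1 #1, JDP2, higher with each siRNA, and CEBPA, lower with each, are also counted among the paralogs. JDP2 and CEBPG are in the list of ATF4 and CHOP targets too. The 3 lower with siADAR1 #1 became 0 without siControl replicate 1 or siADAR1 #1 replicate 1 and 1 without siControl replicate 2. The 5 higher with siADAR1 #2 became 3 without siControl replicate 2 or siADAR1 #2 replicate 2. FOSL1, an AP-1 subunit, fell with siADAR1 #2 from a mean of 21393 to 3685 normalized counts (log2FC −2.60 ± 0.28, adjusted p = 0.000705) and had −0.64 ± 0.28 (adjusted p = 0.158) with siADAR1 #1. FOS fell with siADAR1 #2 as well, with −1.54 ± 0.20 (adjusted p = 0.00133).

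**Figure D5:**
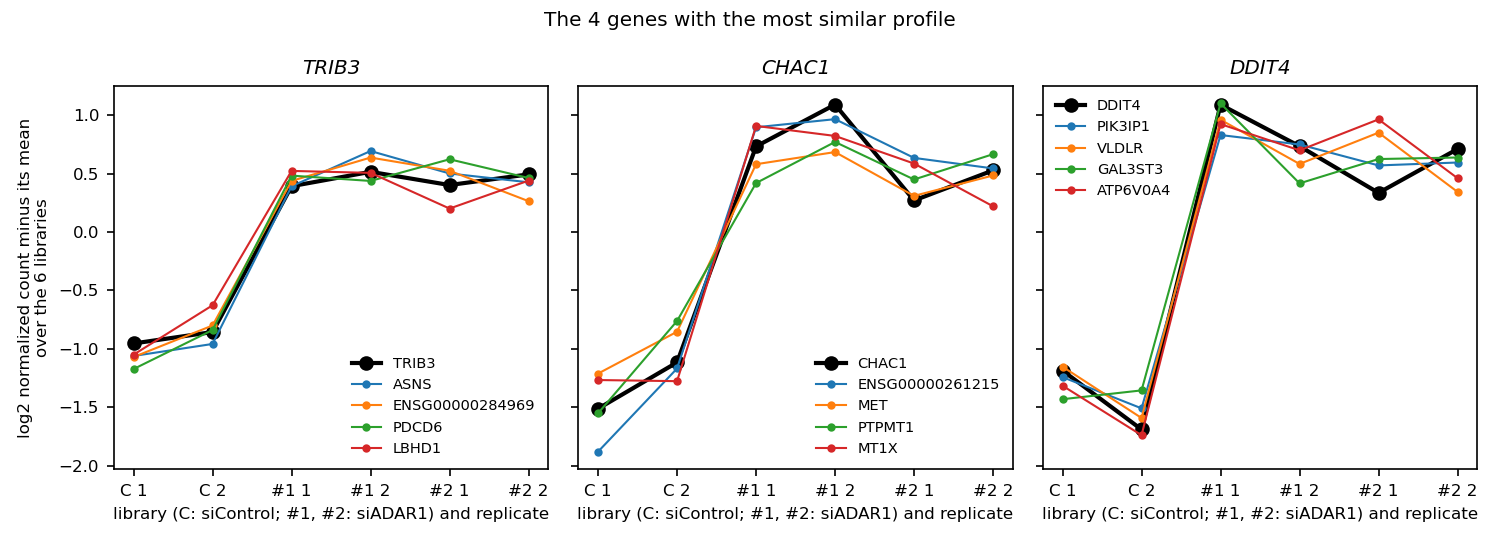
log2 normalized counts minus the mean of each gene over the 6 libraries (vertical axis) for TRIB3, CHAC1 and DDIT4 (black) and the 4 genes closest to each (colours), by library and replicate (horizontal axes). All genes drawn are lower in the siControl libraries than in the siADAR1 libraries, and ASNS runs closest to TRIB3.

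The genes with the profiles most like those of TRIB3, CHAC1 and DDIT4 were found by the root mean square difference of log2 values over the 6 libraries, each gene centred on its mean. ASNS was the nearest to TRIB3, at 0.107, followed by ENSG00000284969, PDCD6 and LBHD1, where the median gene was at 0.760. ASNS had 1262 and 1356 normalized counts in siControl, 3460 and 4265 with siADAR1 #1 and 3732 and 3542 with siADAR1 #2. Of the other members, SESN2 was nearest to TRIB3, at 0.226, and ranked 57 among all genes tested.

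For CHAC1 the nearest was ENSG00000261215, at 0.159, with 4.36 to 31.4 normalized counts, then MET, a receptor tyrosine kinase, PTPMT1 and the metallothionein MT1X, against 1.05 for the median gene. MET had 8477 and 10870 normalized counts in siControl and 24364 to 31603 in the siADAR1 libraries. DDIT4 was nearest to PIK3IP1, an inhibitor of phosphoinositide 3-kinase, at 0.178, with 57.7 and 47.9 normalized counts in siControl and 203 to 243 in the siADAR1 libraries. VLDLR, the very low density lipoprotein receptor and another listed ATF4 target, was second at 0.274, before GAL3ST3 and ATP6V0A4, and the median gene was at 1.13. CHAC1 and DDIT4 were 0.348 apart, closer to each other than either was to TRIB3, at 0.371 and 0.470. Many genes outside the members were closer. Among all genes tested, DDIT4 ranked 28 by closeness to CHAC1, and CHAC1 ranked 13 by closeness to DDIT4. By closeness to TRIB3, CHAC1 ranked 490 and DDIT4 ranked 1469. These distances describe 6 libraries, and the same libraries enter each of them.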

How the data were processed

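Gene expression in Cal62 cells was measured by poly(A)+ RNA-seq (KAPA mRNA HyperPrep, NextSeq 500) in 6 libraries, 2 for each siRNA. The labels hold 1 sample per transfection with 2 columns of values, taken as the biological replicates of the methods. Per the methods, Atropos removed adapters, and the authors obtained gene counts in bcbio-nextgen and normalized them with DESeq2. The submitters' processing notes name FastQC, featureCounts, Salmon and GRCh38, and versions are not given in the sources used here. The deposited table is on a log2 scale, from a variance-stabilizing transformation of normalized counts by the authors, with a lowest value of 0.347736 for a count of 0. Undoing it gave whole reads for 100% of the values (tolerance 0.1). A symbol was found for 57830 of 58333 identifiers in GENCODE.

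log2 values were fitted with limma 3.58.1 in R 4.3.3 (lmFit, eBayes with trend, two-sided) as 3 groups of 2, or with both siRNAs as 1 group, with Benjamini-Hochberg adjustment over 20858 genes with a mean log2 value of at least log2 of 10 (7.617 normalized counts). Steps were tested on simulated data. Tables and figures used Python 3.11.15, pandas 2.3.3 and matplotlib 3.10.9. Named were the members, ADAR, at most 3 genes per list by smallest adjusted p, any of the paralogs, and the 4 nearest profiles. Besides these, the markers of cell types, the 4 eIF2 kinases, genes that overlap members and called genes shared by lists were named. Members and lists were chosen with earlier results of these data known. The 1000-base window and the form TGATGCAA were chosen after matches were seen.

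Replicate numbers come from the column names. The difference of replicate 2 minus replicate 1 correlated at 0.106 (siControl and siADAR1 #1), 0.110 (siControl and siADAR1 #2) and 0.162 (siADAR1 #1 and #2) over 20858 genes. The main fits did not pair the libraries by these numbers. A fit that used them as a block is among the alternatives. Alternatives were no filter, a filter at 50, median-centring, quantile normalization, eBayes without a trend, robust eBayes, log2 of the normalized count plus 1, voom on the recovered reads, the 4 libraries compared, the replicate block, the average of the siRNA changes, and each library left out. The average with the block was added after the values were seen. With 2 libraries per condition, replicate number limits the precision, and limits from reads cover counting error only.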

Additional observations from a re-analysis of the deposited data

Results flagged for a closer look

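For 6 members the changes with the siRNAs differed from each other in the test of siADAR1 #1 against siADAR1 #2 (limma, Benjamini-Hochberg adjusted p under 0.05). Values are log2 differences, siADAR1 #1 minus siADAR1 #2. ATF3 (1.22), ATF5 (1.05) and ATF4 (0.40) were higher with siADAR1 #1. CEBPB (−1.61), DDIT3 (−0.67) and PPP1R15A (−0.61) were higher with siADAR1 #2. The difference of ATF4 (adjusted p = 0.0268) was below the log2FC threshold of 0.5. Of all genes tested 36.4% had an adjusted p under 0.05 in this comparison. With the threshold on log2FC as well, 5 members were called, where 16.1% of all genes were called higher and 16.7% lower. The cause of these differences was not tested.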

How the results depend on the processing

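TRIB3, CHAC1, DDIT4 and SESN2 were called higher with each siRNA in all 16 alternatives, as was ATF3 with siADAR1 #1. For siADAR1 #1, eBayes without a trend reduced the genes called from 3502 to 1347 and the members from 9 to 5 (TRIB3, CHAC1, SESN2, ATF3 and DDIT4). Leaving out 1 library gave 392 to 3680 genes and 5 to 9 members for siADAR1 #1, with 392 genes without siControl replicate 1, 1248 without siControl replicate 2, 1412 without siADAR1 #1 replicate 1, and the same 5 members without either siControl library. It gave 3150 to 5758 genes and 7 to 9 members for siADAR1 #2, with 3150 genes without siControl replicate 1 and 3242 without siADAR1 #2 replicate 1. For siADAR1 #1 against siADAR1 #2 it gave 4810 to 6360 genes and 3 to 5 members, with 3 without siADAR1 #1 replicate 1. With both siRNAs as 1 group 0 genes were called. The average of the siRNA changes called 3585 of the 20858 genes tested and 8 members, and 4055 and 8 with the block. The replicate block called 4086, 6038 and 7275 genes for siADAR1 #1, siADAR1 #2 and their difference, and added CEBPB with siADAR1 #2 and CHAC1 between the siRNAs, so 9 members with each siRNA and 6 between them. It changed no other call of a member. After median-centring ATF4, CHAC1 and SESN2 also differed between the siRNAs, as did CHAC1 after quantile normalization. The sign changed for the siRNA difference of TRIB3 (−0.066 quantile-normalized, −0.00036 with voom, and −0.056 to 0.067 with 1 library left out) and of ADAR (−0.76 to 0.054 with 1 library left out). It also changed for CEBPB with both siRNAs as 1 group (−0.50 to 0.23 with 1 library left out). The cause of these changes was not tested. Where 1 library was left out, the lone library of a condition was assumed to vary like the others.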
